A study of Mus musculus with 8 samples.

Results

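The G1 cyclins and CDK inhibitors described here are 10 genes, chosen by symbol from the 24849 listed in each expression file. They are the D-type cyclin genes Ccnd1, Ccnd2 and Ccnd3, the E-type cyclin genes Ccne1 and Ccne2, the CIP/KIP inhibitor genes Cdkn1a and Cdkn1b, and the INK4 inhibitor genes Cdkn2a, Cdkn2b and Cdkn2c. RNA with poly(A) tails was sequenced from MPI-II cells, a mouse embryonic stem cell (mESC) line whose source is labelled 129S2/SvPas. The cells were wild type or Pcgf5-/-, before (day 0) or after 6 days of neural differentiation (day 6), and each of the 4 combinations was sequenced as 2 samples. Pcgf5 encodes a RING-finger subunit of a variant Polycomb repressive complex 1 (PRC1), and it was disrupted with TALENs followed by drug selection and picking of single colonies, so that genotype and clone cannot be told apart. The paper describes mESC culture on inactivated fibroblast feeders in serum with LIF and 2 inhibitors (2i). These are CHIR99021, which acts on GSK3, and PD0325901, which acts on MEK. The paper's culture sentence names its Sox1-GFP mESC lines, and is taken here to hold for the day 0 MPI-II cells. Day 6 cells had been moved to N2B27 medium. On that reading the comparison of days is also one of media and of feeders. Whether the 2 samples of a condition came from separate cultures is not said beyond their being called biological replicates, and p-values measure the spread between these samples.

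In G1, D-type cyclins activate CDK4 and CDK6 in response to growth signals, and cyclin E then activates CDK2. Both kinase activities phosphorylate the retinoblastoma family of pocket proteins, which releases E2F factors to transcribe the genes of S phase. INK4 proteins bind CDK4 and CDK6, whereas the CIP/KIP proteins p21 and p27 act mainly on cyclin E-CDK2. Mouse ES cells are known for a short G1, with high cyclin E and little INK4 activity, and G1 lengthens as they differentiate. The Cdkn2a-Cdkn2b region is a textbook target of Polycomb repression.

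The targeted gene was read first. At day 0 Pcgf5 measured 5.18 and 3.63 FPKM in the wild-type pair of samples and 1.28 and 1.84 FPKM in the Pcgf5-/- pair, and at day 6 it measured 9.16 and 5.06 FPKM against 0.669 and 0.457 FPKM. FPKM counts fragments per length of transcript and per mapped fragments in all, so that levels of different genes can be compared per length. The lower Pcgf5 level passed the test at day 6 (log2 fold change -2.33, limma adjusted p = 0.00421) but not at day 0 (-1.07, adjusted p = 0.105). Fold changes in the text are differences of log2(FPKM + 1), which understates changes in genes of low level. At day 0 the summed FPKM of the 14 fibroblast markers was 323 and 208 for the wild-type pair and 205 and 675 for the Pcgf5-/- pair, and it was 37.2 to 57.9 in the 4 samples of day 6, with no marker at 0 in any sample. Mmp2, a marker whose mean rose between the days in both genotypes, was a large part of the day 6 sum. It gave 16.2 and 10.8 FPKM in the wild-type pair and 21.5 and 16.3 FPKM in the Pcgf5-/- pair. In the fibroblast marker sum, Pcgf5-/- day 0 replicate 2 stood apart from the other samples of day 0. Across all tested genes it correlated with those samples at 0.966 to 0.972. The sum of the 7 mESC markers was 352 and 157 FPKM for the wild-type pair of day 6 and 938 and 928 FPKM for the Pcgf5-/- pair, against 1863 to 2047 FPKM at day 0. The sum of the 9 neural markers at day 6 was 596 and 495 FPKM against 237 and 236 FPKM in the same order. At day 0 that sum was 153 to 181 FPKM, of which Stmn2, a marker that fell between the days, gave 90.0 to 132 FPKM. The 643 tested genes of chromosome 6, where Ccnd2 and Cdkn1b lie, had a median genotype effect of 0.41 at day 0 and 0.37 at day 6, and the 1086 of chromosome 11 had medians of 0.48 and 0.38. On the other 18 chromosomes with at least 100 tested genes, which leaves out chromosome Y with 5, the medians were 0.04 to 0.12 at day 0 and -0.06 to 0.03 at day 6.

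All 10 genes had a mean above 1 FPKM in at least 1 condition and were tested among 13214 genes, Cdkn2c only through its wild-type day 6 mean. Between the genotypes, none of the 10 passed at day 0 and only Cdkn2c passed at day 6, against 0.333% and 16.6% of all tested genes called. At day 0, 3 of the 10 had an unadjusted p under 0.05 (limma), as had 2294 of all 13214 tested genes. In wild type, 7 of the 10 changed between day 0 and day 6, where 50.5% of all tested genes did. Cdkn2c is among the 7 and was tested only through wild-type day 6, so that its place there is not evidence about the family. In Pcgf5-/- cells 5 of the 10 changed, where 32.3% of all tested genes did. The wild-type and Pcgf5-/- day effects and the genotype effects share samples, so these counts are not independent. No member passed the test of whether the genotype effect differed between the days, that is the genotype by day interaction, which called 3.09% of all tested genes. Of the 10, 4 had an unadjusted p under 0.05 in the interaction, as had 3064 of all 13214 tested genes. The members' median log2 fold change was 0.20 at day 0 and -0.24 at day 6 for genotype, 0.29 in wild type and -0.16 in Pcgf5-/- cells for day, and -0.56 for the interaction, while the medians over all tested genes were 0.11, 0.02, 0.22, 0.13 and -0.10.

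**Figure D1:**
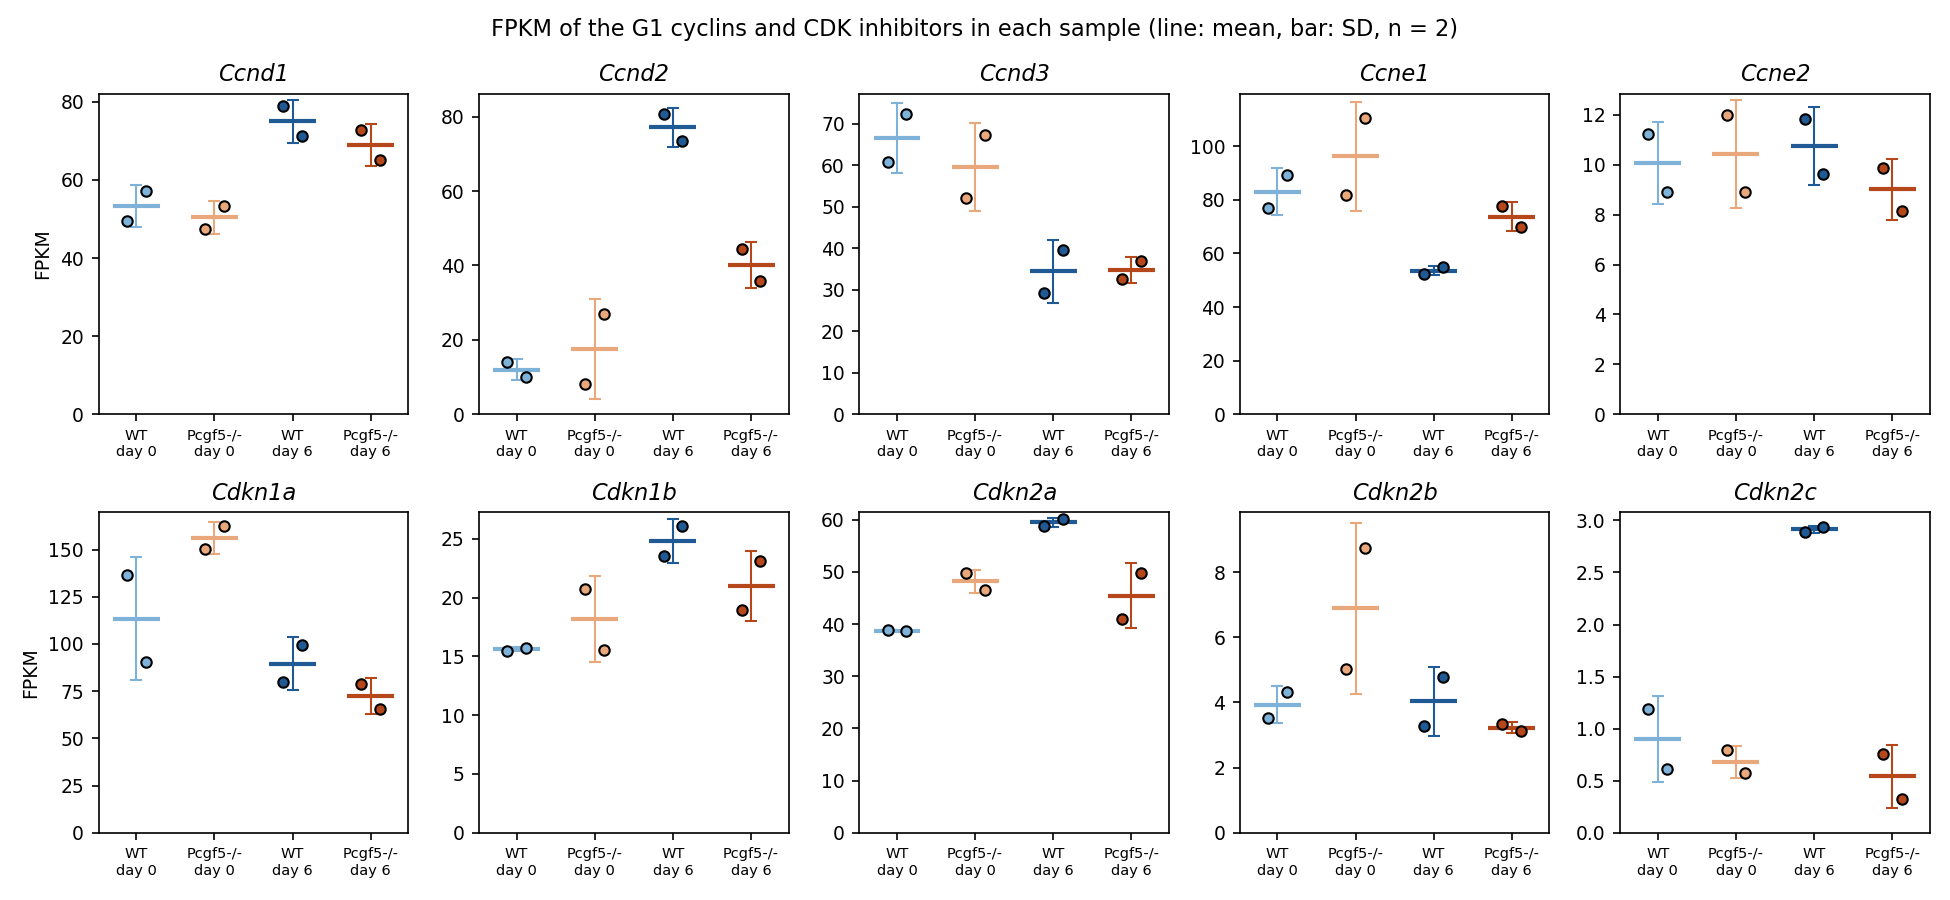
FPKM of the 10 genes in every sample, by condition; points are samples, the horizontal line is the mean and the bar the SD (n = 2). Ccnd2 rose from 14.02 and 9.97 FPKM to 80.8 and 73.4 FPKM in wild type, and Cdkn2c stood near 2.9 FPKM at day 6 in wild type and below 1 FPKM in both Pcgf5-/- samples.

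The balance of upward and downward calls depended on the scaling. Of the genes called for day, 67.8% were higher at day 6 in wild type and 67.9% in Pcgf5-/- cells, which became 51.3% and 53.1% after quantile normalization, a scaling that gives all samples the same distribution. For genotype at day 6 the share higher was 57.6%, and 46.7% after each gene was centred on its chromosome, and for the interaction it was 43.4%, and 57.7% after quantile normalization. The median of all genes moved under quantile normalization from 0.22 to 0.0050 in wild type, from 0.13 to 0.02 in Pcgf5-/- cells, from 0.11 to -0.0062 for genotype at day 0 and from -0.10 to -0.01 for the interaction. Where a member's call depends on that, its value after quantile normalization is given beside it.

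D-type cyclins are the growth-factor-responsive cyclins of early G1. Ccnd2, which encodes cyclin D2, had the widest range of the 3. It lies at chr6:127075727-127101066 in the mm9 build used for the files. At day 0 it measured 14.02 and 9.97 FPKM in the wild-type pair and 8.11 and 27.0 FPKM in the Pcgf5-/- pair. At day 6 the wild-type pair measured 80.8 and 73.4 FPKM and the Pcgf5-/- pair 44.5 and 35.8 FPKM. Every day 6 sample was above every day 0 sample, and at day 6 both Pcgf5-/- samples were below both wild-type samples. Ccnd2 rose with differentiation in wild type, 6.43-fold in mean FPKM (log2 fold change 2.60, SE 0.44, limma adjusted p = 0.00165). It also rose in Pcgf5-/- cells, 2.29-fold (1.36, SE 0.44, adjusted p = 0.0456), a call that was lost in 7 of the 8 fits without 1 sample (0.55 to 1.51, adjusted p = 0.0640 to 0.179). The difference between these day effects did not pass (interaction -1.25, 95% interval -2.67 to 0.18, adjusted p = 0.270).

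The genotype difference of Ccnd2 at day 6, a wild-type mean 1.92 times the Pcgf5-/- mean, did not pass (log2 fold change -0.93, adjusted p = 0.182). The test pools the spread over all conditions, and the Pcgf5-/- pair of day 0 differed by more than any other pair. Its replicate 2, the sample highest in fibroblast markers, was also the highest of day 0 in Ccnd2. The part of feeder RNA in that value was not tested, and in bulk RNA fewer cells of a type and less RNA per cell cannot be told apart. Without each of the 8 samples in turn, the genotype estimate at day 6 ran from -1.09 to -0.78. It passed only when a sample of that Pcgf5-/- day 0 pair was left out. The estimate was then the same as in the main fit, but the SE was 0.19 in place of 0.44. Leaving out either sample takes the spread of that pair out of the test, so that passing there cannot decide the question. Without replicate 2 the day effect in Pcgf5-/- cells was 2.17 (adjusted p = 0.00228), the only one of those 8 fits in which it passed, the interaction was -0.44 (adjusted p = 0.483), and the genotype effect at day 0 turned from 0.32 to -0.49, neither of which passed (adjusted p = 0.775 and 0.465). Without replicate 1 the interaction was -2.06 and passed (adjusted p = 0.0445), and the genotype effect at day 0 was 1.12 (adjusted p = 0.134). Relative to the genes of its chromosome, Ccnd2 at day 6 had a genotype effect of -1.33 (adjusted p = 0.0803), and at day 0 of -0.12 (adjusted p = 0.942). On the same scale its day effect in Pcgf5-/- cells was 1.22 and did not pass (adjusted p = 0.0656).

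Ccnd1, encoding cyclin D1, did not pass the genotype test at either day (adjusted p = 0.819 and 0.576). It lies at chr7:152115836-152125830 (mm9) and measured 49.6 and 57.2 FPKM (wild type) against 47.4 and 53.4 FPKM (Pcgf5-/-) at day 0. At day 6 the pairs measured 78.8 and 71.1 FPKM against 72.8 and 65.1 FPKM. It rose between the days in wild type (log2 fold change 0.48, adjusted p = 0.0161) and in Pcgf5-/- cells (0.45, adjusted p = 0.0348), and with quantile normalization the values were 0.54 and 0.48. Centred on its chromosome, neither rise passed (0.32 with adjusted p = 0.0836, and 0.33 with adjusted p = 0.103). The rise in wild type did not pass without wild-type replicate 1 of day 0 (0.38, adjusted p = 0.0892) or of day 6 (0.41, adjusted p = 0.0913), nor that in Pcgf5-/- cells without any 1 of the 4 Pcgf5-/- samples (0.36 to 0.53, adjusted p = 0.0616 to 0.181). The 95% interval of its genotype effect was -0.38 to 0.22 at day 0 and -0.42 to 0.19 at day 6.

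Ccnd3, encoding cyclin D3, went the other way. It lies at chr17:47642000-47736637 (mm9) and measured 60.7 and 72.5 FPKM (wild type) against 52.1 and 67.2 FPKM (Pcgf5-/-) at day 0. At day 6 the pairs were down to 29.1 and 39.7 FPKM against 32.6 and 37.0 FPKM. All day 6 samples were below all day 0 samples. Ccnd3 fell by 0.94 on the log2 scale in wild type (adjusted p = 0.00406) and fell by 0.75 in Pcgf5-/- cells (adjusted p = 0.0192), the latter without Pcgf5-/- day 0 replicate 2 at -0.57 (adjusted p = 0.107) and without day 6 replicate 1 or 2 at -0.66 or -0.84 (adjusted p = 0.0963 or 0.0558). At day 6 its genotype effect was 0.03 with a 95% interval of -0.41 to 0.47.

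The makeup of the D-type cyclin RNA therefore differed between the days. Ccnd3 gave 45.6% to 51.9% of the summed FPKM of the 3 genes in the 4 samples of day 0 and 15.4% to 26.9% in the 4 of day 6. At day 6 Ccnd2 gave 42.8% and 39.8% in the wild-type pair but 29.7% and 25.9% in the Pcgf5-/- pair, against 7.14% to 18.3% at day 0. The summed level at day 6 was 189 and 184 FPKM in the wild-type pair and 149.9 and 138 FPKM in the Pcgf5-/- pair.

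**Figure D2:**
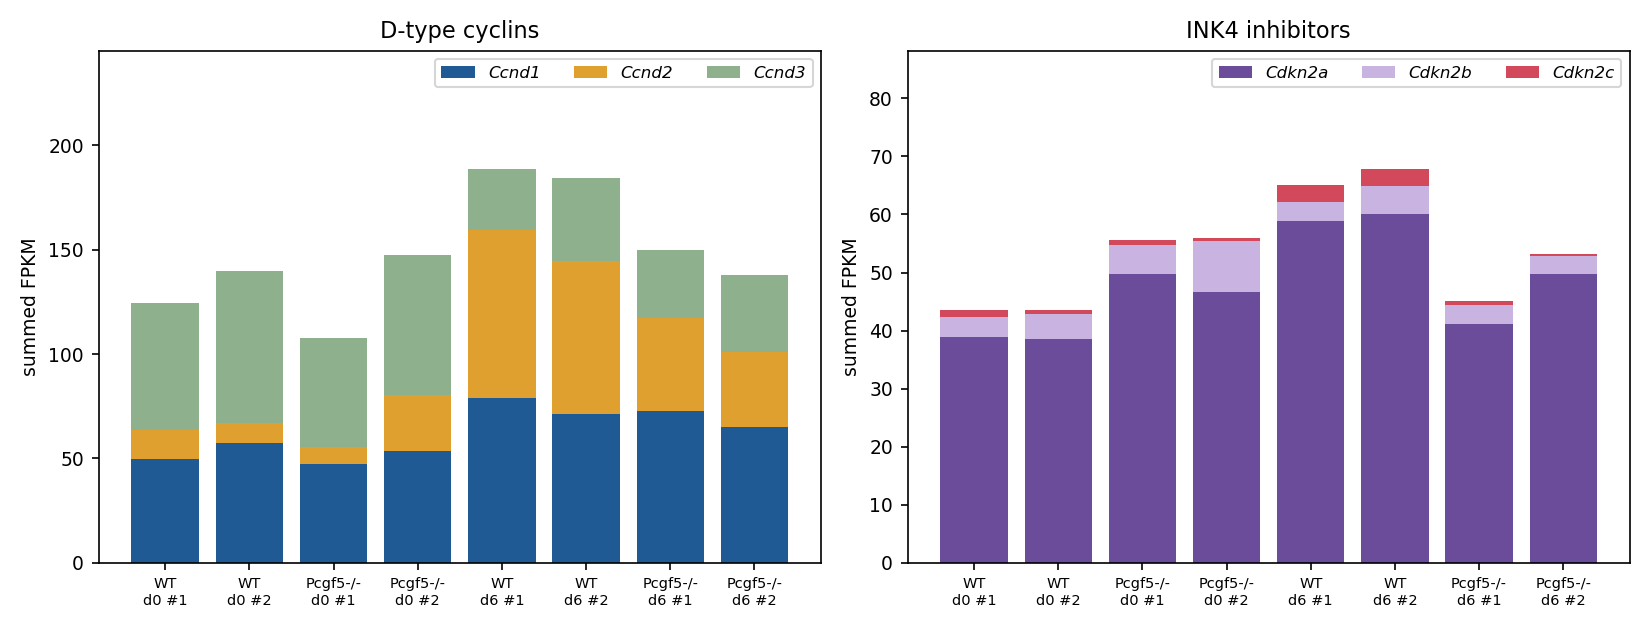
Stacked FPKM of the 3 D-type cyclin genes (left) and the 3 INK4 genes (right) in each sample, named by genotype, day (d0 or d6) and replicate number. In wild type at day 6, Ccnd2 makes up 42.8% and 39.8% of the D-type sum, and Cdkn2a makes up 83.3% to 93.5% of the INK4 sum in every sample.

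E-type cyclins act at the end of G1. Ccne1, encoding cyclin E1, was the most abundant cyclin of the 5 per transcript length in all 4 samples of day 0 and in Pcgf5-/- cells at day 6. It lies at chr7:38883003-38892509 (mm9) and measured 76.9 and 89.2 FPKM (wild type) against 81.9 and 110.5 FPKM (Pcgf5-/-) at day 0. At day 6 it measured 52.4 and 54.8 FPKM against 77.6 and 69.9 FPKM, and the genotypes did not overlap. In wild type at day 6 both Ccnd1 and Ccnd2 were above it. Ccne1 fell by 0.62 on the log2 scale in wild type (SE 0.16, adjusted p = 0.0128), and its day effect in Pcgf5-/- cells was -0.36 (adjusted p = 0.117), or -0.15 without Pcgf5-/- day 0 replicate 2 (adjusted p = 0.538) and -0.58 without replicate 1 (adjusted p = 0.0490). That change passed relative to its chromosome (-0.48, adjusted p = 0.0425) and with a replicate block for each day (-0.36, adjusted p = 0.0453). The fall in wild type did not pass without day 0 replicate 2 (-0.51, adjusted p = 0.0770) or day 6 replicate 1 (-0.59, adjusted p = 0.0603). The genotype effect at day 6 was 0.45 (SE 0.16, adjusted p = 0.0900), which did not pass, and the interaction was 0.25 (95% interval -0.27 to 0.78). All 8 values of Ccne1 lay above the upper bound of the interval the files give beside each value, as did 2 of the 8 of Ccnd3 and no other member value, and these intervals were not used.

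Ccne2, encoding cyclin E2, ran between 8.15 and 11.98 FPKM over the 8 samples. It lies at chr4:11118498-11131926 (mm9) and overlapped between all conditions compared. Its 4 fold changes for genotype and day lay between -0.23 and 0.09, with adjusted p of 0.481 to 0.954. Ccne1 made up 81.6% to 92.5% of the summed E-type cyclin FPKM.

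CIP/KIP inhibitors bind cyclin-CDK complexes as a whole. Cdkn1a, encoding p21, a target of p53, had the highest FPKM of the 5 inhibitors in every sample. It lies at chr17:29227931-29237667 (mm9) and measured 136 and 90.4 FPKM (wild type) against 150.3 and 162 FPKM (Pcgf5-/-) at day 0. At day 6 the pairs measured 79.7 and 99.6 FPKM against 79.0 and 65.8 FPKM. Both Pcgf5-/- samples were above both wild-type samples at day 0 and below both at day 6. Neither difference passed (0.49, SE 0.20, adjusted p = 0.272 at day 0, and -0.30, SE 0.20, adjusted p = 0.347 at day 6), nor did the interaction (-0.79, 95% interval -1.45 to -0.12, adjusted p = 0.159). In Pcgf5-/- cells Cdkn1a fell by 1.10 on the log2 scale between the days, a day 0 mean 2.16 times that of day 6 (adjusted p = 0.00548), and this fall passed under each of the alternatives run. In wild type the change was -0.32 (adjusted p = 0.229), with 136 and 90.4 FPKM at day 0 on either side of 99.6 FPKM. It rested on these day 0 samples, being -0.021 without replicate 1 (adjusted p = 0.937) and -0.61 without replicate 2, which passed (adjusted p = 0.0391).

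Cdkn1b encodes p27, which restrains cyclin E-CDK2 in cells leaving the cycle. It lies at chr6:134870419-134875543 (mm9) and measured 15.5 and 15.7 FPKM (wild type) against 20.7 and 15.6 FPKM (Pcgf5-/-) at day 0. At day 6 the pairs measured 23.5 and 26.1 FPKM against 18.9 and 23.1 FPKM. It rose in wild type (0.64, SE 0.17, adjusted p = 0.0157), with quantile normalization by 0.49 (adjusted p = 0.0497) and relative to its chromosome by 0.46 (adjusted p = 0.0611). The rise did not pass without wild-type day 0 replicate 1 (0.63, adjusted p = 0.0610) or 2 (0.65, adjusted p = 0.0546) or day 6 replicate 2 (0.56, adjusted p = 0.0918). In Pcgf5-/- cells the change was 0.21 (adjusted p = 0.391). The genotype effect at day 6 was -0.23 (adjusted p = 0.385) as measured and -0.64 (adjusted p = 0.0521) relative to the other genes of chromosome 6. At day 0 those values were 0.19 and -0.25.

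**Figure D3:**
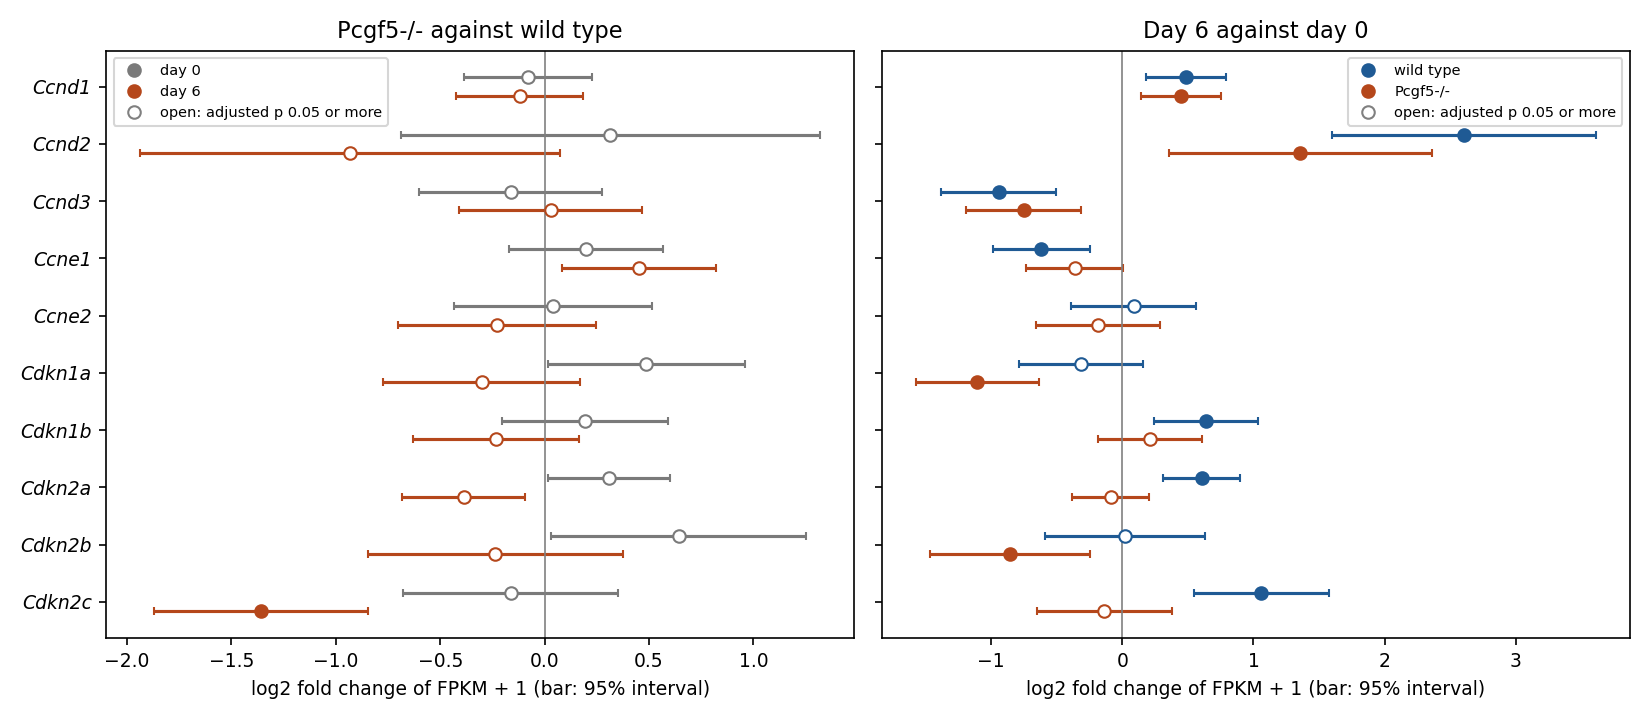
Log2 fold change of FPKM + 1 for the 10 genes with 95% intervals from limma, Pcgf5-/- against wild type (left, at day 0 and day 6) and day 6 against day 0 (right, in each genotype); filled points passed an adjusted p of 0.05. Cdkn2c at day 6 (-1.36) is the only filled point on the left, and 7 wild-type and 5 Pcgf5-/- points are filled on the right.

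INK4 inhibitors bind CDK4 and CDK6 directly. Cdkn2c, encoding p18, was the only member called between the genotypes. It lies at chr4:109333481-109339361 (mm9). At day 0 it measured 1.19 and 0.608 FPKM (wild type) against 0.791 and 0.573 FPKM (Pcgf5-/-). At day 6 it measured 2.89 and 2.94 FPKM in the wild-type pair against 0.756 and 0.327 FPKM in the Pcgf5-/- pair. How many fragments stand behind values this low is unknown. Both wild-type samples of day 6 were above all others, which ranged from 0.327 to 1.19 FPKM. Cdkn2c was lower in Pcgf5-/- cells at day 6, the wild-type mean being 5.38 times the Pcgf5-/- mean (log2 fold change -1.36, SE 0.22, limma adjusted p = 0.00934), where 7.05% of all tested genes were called lower. Because it entered the test only through the condition in which it is high, neither this call nor its rise in wild type is evidence about the family. The genotype call passed under every alternative in which the gene was tested, and the gene was not tested at a minimum of 5 FPKM. The gene rose between the days in wild type (1.06, SE 0.22, adjusted p = 0.00501), by 0.59 after quantile normalization, which did not pass (adjusted p = 0.0527), and its change in Pcgf5-/- cells was -0.14 (95% interval -0.65 to 0.38). The interaction was -1.20 (SE 0.32, adjusted p = 0.0775) and did not pass. The 2 genes outside the family whose centred log2(FPKM + 1) values over the 8 samples were closest to it were Ptger1, with a root mean square difference of 0.16, and Mapk8ip3, with 0.19, where Cdkn2c itself varied by 0.56 on that measure.

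The Cdkn2c and Cdkn2a genes each have 2 annotated starts, and the FPKM of a gene sums them. The 250 bases before each start are shown because the level of both genes moved with differentiation in wild type and because the files do not say which start was used. They are reference sequence of the RefSeq annotation on GRCm38.p6, a later build than the files' mm9, so that their coordinates cannot be set beside those above. Capitals mark the letters TTTNNCGC or, for the other strand, GCGNNAAA, a form of the E2F site, which was found in 4.28% of all 32807 such windows. Of the 10 members, 7 had a window in the table, with 11 starts, and 2 of these held a match, both of them Cdkn2a.
Cdkn2c start 1 (chr4:109666757-109667006, minus strand): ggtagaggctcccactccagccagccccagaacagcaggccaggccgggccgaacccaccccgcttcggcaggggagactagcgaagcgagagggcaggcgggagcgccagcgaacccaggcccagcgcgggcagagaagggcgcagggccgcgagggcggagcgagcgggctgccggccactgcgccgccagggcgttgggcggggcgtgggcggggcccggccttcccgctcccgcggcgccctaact
Cdkn2c start 2 (chr4:109665373-109665622, minus strand): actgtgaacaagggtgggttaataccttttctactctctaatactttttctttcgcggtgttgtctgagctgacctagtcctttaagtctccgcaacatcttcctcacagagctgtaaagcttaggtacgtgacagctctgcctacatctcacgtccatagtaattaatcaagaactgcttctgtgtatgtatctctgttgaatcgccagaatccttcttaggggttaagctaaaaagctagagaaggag
Cdkn2a start 1 (chr4:89294620-89294869, minus strand): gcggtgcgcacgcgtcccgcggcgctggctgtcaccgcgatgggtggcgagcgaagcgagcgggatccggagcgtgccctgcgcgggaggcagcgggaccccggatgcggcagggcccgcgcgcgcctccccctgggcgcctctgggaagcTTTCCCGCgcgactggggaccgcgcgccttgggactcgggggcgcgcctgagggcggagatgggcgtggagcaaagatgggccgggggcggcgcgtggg
Cdkn2a start 2 (chr4:89282193-89282442, minus strand): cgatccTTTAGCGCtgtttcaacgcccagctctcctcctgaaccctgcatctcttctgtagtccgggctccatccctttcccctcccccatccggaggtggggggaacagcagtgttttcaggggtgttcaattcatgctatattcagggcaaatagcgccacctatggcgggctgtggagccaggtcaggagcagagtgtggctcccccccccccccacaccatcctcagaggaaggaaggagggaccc
The windows of the 2 starts of each gene differ in base composition. Cdkn2c start 1 has 77.2% G and C and 29 CpG, and start 2 has 42.8% and 6 CpG. Cdkn2a start 1, the start of the Arf transcript, has 78.4% G and C and 40 CpG, and start 2, that of the Ink4a transcript, has 60.0% and 7 CpG. Over all windows the medians were 52.4% and 6 CpG. A match is a description of the letters, and no binding was measured in these samples.

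Cdkn2a, which encodes both p16-Ink4a and p19-Arf, made up most of the INK4 FPKM. It lies at chr4:88920377-88940523 (mm9) and measured 38.9 and 38.6 FPKM (wild type) against 49.8 and 46.6 FPKM (Pcgf5-/-) at day 0. At day 6 the pairs measured 58.9 and 60.1 FPKM against 41.0 and 49.8 FPKM. The Pcgf5-/- samples were above the wild-type samples at day 0 and below them at day 6. Neither difference passed (0.31, SE 0.13, adjusted p = 0.266 at day 0, and -0.39, SE 0.13, adjusted p = 0.0726 at day 6). After quantile normalization the day 6 value was -0.49 and passed (adjusted p = 0.0293). Cdkn2a rose in wild type by 0.61 (adjusted p = 0.00488), the change in Pcgf5-/- cells was -0.09 (95% interval -0.38 to 0.20), and the interaction was -0.70 (SE 0.18, adjusted p = 0.0744). The FPKM values do not separate the Ink4a from the Arf transcript.

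Cdkn2b, encoding p15, lies next to Cdkn2a at chr4:88952198-88956941 (mm9). It measured 3.52 and 4.33 FPKM (wild type) against 5.03 and 8.75 FPKM (Pcgf5-/-) at day 0, and 3.29 and 4.78 FPKM against 3.35 and 3.11 FPKM at day 6. The highest value was again that of Pcgf5-/- day 0 replicate 2. The genotype effect was 0.64 at day 0 (SE 0.27, adjusted p = 0.265) and -0.24 at day 6 (adjusted p = 0.581). In Pcgf5-/- cells Cdkn2b fell by 0.86 on the log2 scale between the days (adjusted p = 0.0396), and without that sample the change was -0.51 and did not pass (adjusted p = 0.198). It also did not pass without Pcgf5-/- day 6 replicate 1 (-0.90, adjusted p = 0.111) or 2 (-0.82, adjusted p = 0.144), or without either wild-type sample of day 0 (-0.86, adjusted p = 0.0543 and 0.0546). Mtap, which lies on the far side of Cdkn2a, had a genotype effect of 0.28 at day 0 and of -0.11 at day 6, neither of which passed, and Dmrta1 was under the minimum of 1 FPKM in every condition.

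**Figure D4:**
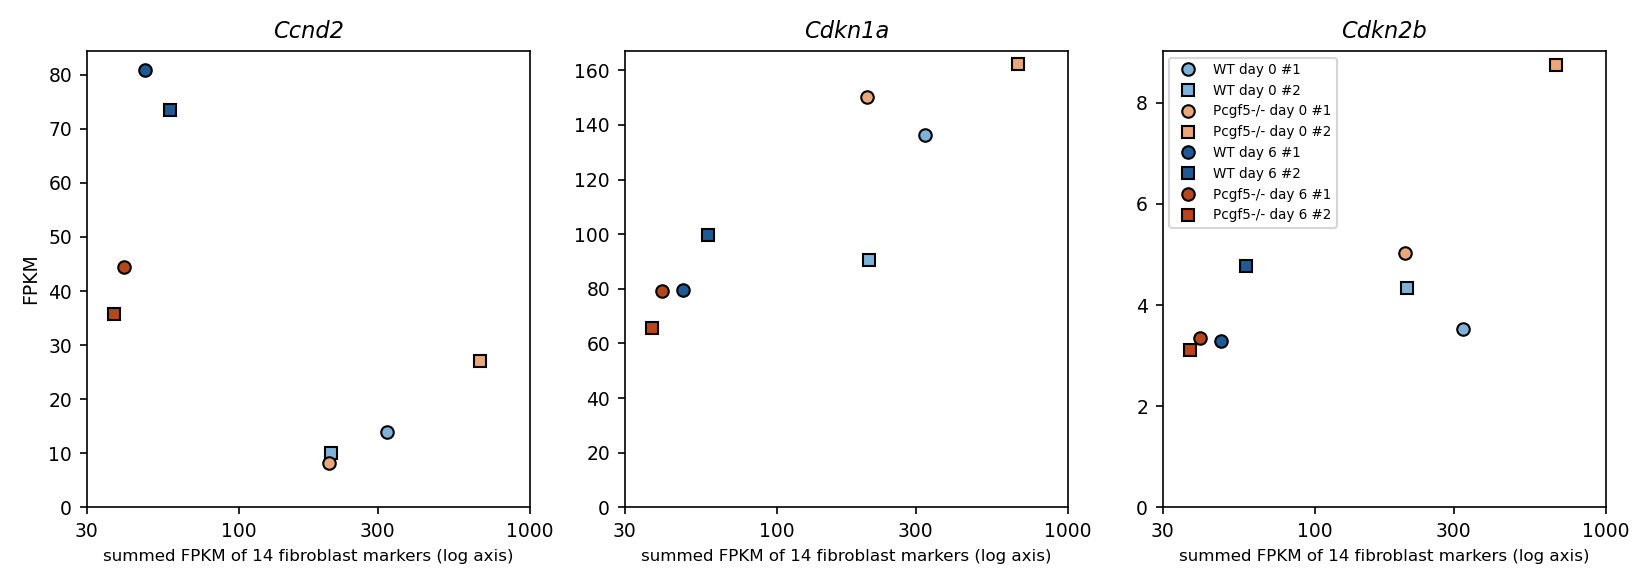
FPKM of Ccnd2, Cdkn1a and Cdkn2b against the summed FPKM of 14 fibroblast markers (log axis) in the 8 samples. Pcgf5-/- day 0 replicate 2, at 675 FPKM of markers, has the highest Cdkn1a (162 FPKM) and Cdkn2b (8.75 FPKM) of all samples and the highest Ccnd2 (27.0 FPKM) of day 0. Pcgf5-/- day 0 replicate 1, at 205 FPKM of markers, has Cdkn1a at 150.3 FPKM. The wild-type day 0 samples, at 323 and 208 FPKM of markers, have it at 136 and 90.4 FPKM.

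At day 0 the 3 inhibitors whose Pcgf5-/- samples both lay above both wild-type samples were Cdkn1a, Cdkn2a and Cdkn2b, and 34.6% of all tested genes did so. The fibroblast markers had positive genotype effects at day 0 for 14 of 14 genes, as had 8702 of all 13214 tested genes. Their median was 0.47, and none passed (limma, none with an unadjusted p under 0.05). For 0 of the 14 were both Pcgf5-/- samples above both wild-type samples. The marker sum of Pcgf5-/- replicate 1 (205 FPKM) was below both wild-type sums (323 and 208 FPKM), and only that of replicate 2 (675 FPKM) was above them. Without Pcgf5-/- day 0 replicate 2 the genotype effects at day 0 were 0.43 for Cdkn1a, 0.35 for Cdkn2a and 0.30 for Cdkn2b. That of Cdkn2b was 0.99 without Pcgf5-/- day 0 replicate 1, and that of Cdkn1a was 0.78 without wild-type day 0 replicate 1 and 0.19 without replicate 2, none of which passed (adjusted p = 0.170, 0.116 and 0.761). At day 6, 5 members had both Pcgf5-/- samples below both wild-type samples, namely Ccnd2, Cdkn1a, Cdkn1b, Cdkn2a and Cdkn2c, where 28.8% of all tested genes did so, and Ccne1 had both above, as did 33.4%. Cdkn2c entered the test only through wild-type day 6, so that its place among these 5 is not evidence about the family. By direction, the wild-type day test called 5 members higher and 2 lower, where it called 34.2% of all tested genes higher and 16.2% lower. Cdkn2c is among the 5 called higher, with the same limit. The Pcgf5-/- day test called 2 higher and 3 lower, where it called 21.9% and 10.4%. The mESC and neural marker sums also differed between the genotypes at day 6, and the part of differentiation state in the members' day 6 values was not tested.

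The partners of these genes were read from gene lists by role. In every list the number of genes that differed between the genotypes at day 0 was 0. Among the 7 G1 kinase genes and their activators none passed at day 6 (limma, 2 with an unadjusted p under 0.05). Over all 13214 tested genes, 4315 had an unadjusted p under 0.05 at day 6. The lowest was Cdk4, the main D-cyclin partner, at 303 and 355 FPKM (wild type) against 203 and 274 FPKM (-0.47, adjusted p = 0.121), and the highest was Mnat1, a subunit of the CDK-activating kinase (0.41, adjusted p = 0.0628). None of the 6 genes in the list of S, G2 and M phase cyclins, which includes Cdk1, passed (limma, 2 with an unadjusted p under 0.05). Their values ran from 0.01 for Cdk1 to 0.57 for Ccna1, all positive. Ccna1 entered the test only through its Pcgf5-/- day 6 mean of 1.23 FPKM, against 0.496 FPKM in wild type. Its positive value is therefore not evidence about the list. Of the other CDK inhibitors, Cdkn1c, which encodes p57, was lower in Pcgf5-/- cells at day 6, at 11.8 and 7.53 FPKM against 38.4 and 24.0 FPKM in wild type (-1.59, SE 0.38, adjusted p = 0.0284). It stood at 0.524 to 1.98 FPKM in the 4 samples of day 0, and its genotype effect at day 6 did not pass when any 1 of the 4 samples of day 6 was left out (adjusted p = 0.0657 to 0.139). Cdkn3 had the highest value of that list, 0.04, and Cdkn2d, which has 2 loci in the files, did not pass at either.

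Downstream, 2 of the 13 pocket protein and E2F/DP genes were lower in Pcgf5-/- cells at day 6 and none higher. Of all tested genes, 7.05% were called lower and 9.57% higher. Tfdp1, the DP partner of E2F factors, stood at 65.4 and 64.3 FPKM against 110 and 126 FPKM in wild type (-0.85, adjusted p = 0.00991). E2f5, a repressor-type E2F, stood at 28.8 and 32.6 FPKM against 40.8 and 51.1 FPKM (-0.56, adjusted p = 0.0388). The highest value of the list was that of E2f4, at 0.38 (adjusted p = 0.0749). E2f6, a subunit of another variant PRC1, was the only gene of the cell-cycle lists to pass the interaction (-0.91, adjusted p = 0.0426). It rose from 7.19 and 7.18 FPKM to 34.6 and 33.7 FPKM in wild type and from 12.3 and 12.2 FPKM to 30.4 and 28.4 FPKM in Pcgf5-/- cells, and relative to its chromosome its interaction was -0.83 (adjusted p = 0.0511). The interaction of E2f6 did not pass when any 1 of the 8 samples was left out (-0.95 to -0.86, adjusted p = 0.0680 to 0.132). Of the 14 S-phase genes, 3 were higher in Pcgf5-/- cells at day 6, where 9.57% of all tested genes were called higher. They were Cdc6, a loader of the replicative helicase (0.54, adjusted p = 0.0275), Cdt1, its partner (0.51, adjusted p = 0.0294), and Mcm2, a helicase subunit (0.68, adjusted p = 0.0116). Cdc6 is on chromosome 11 and Mcm2 on chromosome 6, and relative to their chromosomes the values were 0.14 (adjusted p = 0.5001) and 0.28 (adjusted p = 0.136), whereas Cdt1, on chromosome 8, had 0.56 (adjusted p = 0.0252). Rrm1 was lowest, at -0.31 (adjusted p = 0.115). In wild type 7 of the 14 fell between the days, where 16.2% of all tested genes were called lower, and in Pcgf5-/- cells 1 did, where 10.4% were. None of the 14 passed the interaction (limma, 1 with an unadjusted p under 0.05), so a difference between these counts was not shown.

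Upstream, 3 of the 16 genes of p53 and its targets were higher in Pcgf5-/- cells at day 6, against the same 9.57% of all tested genes, a list that shares the regulator of Cdkn1a. They were Gadd45a (1.15, adjusted p = 0.0104), Pmaip1 (1.04, adjusted p = 0.0427) and Trp53 itself (0.70, adjusted p = 0.0196), and relative to their chromosomes Gadd45a, on chromosome 6, had 0.75 (adjusted p = 0.0431) and Trp53, on chromosome 11, had 0.31 (adjusted p = 0.215). Bbc3 was lowest, at -0.72 (adjusted p = 0.0610), and the median of the list was -0.0032. ERK is the kinase below MEK and an input to the D-type cyclins. Of 6 genes that report ERK activity, 2 were higher at day 6 in Pcgf5-/- cells, again against 9.57% of all tested genes. They were Etv4 (2.096, adjusted p = 0.0206) and Etv5 (1.63, adjusted p = 0.0185), and Spred1 was lowest at 0.10 (adjusted p = 0.799). Etv4 is on chromosome 11, and relative to that chromosome it had 1.70 (adjusted p = 0.0430). Without wild-type day 6 replicate 2, Etv4 was at 1.26 and passed (adjusted p = 0.0434), and Etv5 was at 1.04 and did not (adjusted p = 0.0609). Without Pcgf5-/- day 6 replicate 1 neither passed (adjusted p = 0.114 for both), and without replicate 2 Etv4 did not (adjusted p = 0.0707). Of 7 genes that act in turnover of G1 cyclins and inhibitors, 1 was lower, where 7.05% of all tested genes were called lower. It was Gsk3b, a kinase that marks cyclin D1 for degradation (-0.58, adjusted p = 0.0463). Relative to its chromosome Gsk3b had -0.54 (adjusted p = 0.0684), while Cul1 was highest at 0.28 (adjusted p = 0.126).

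All 7 mESC markers were higher in Pcgf5-/- cells at day 6, from Klf4 (1.28, adjusted p = 0.0229) to Esrrb (2.40, adjusted p = 0.00215), with Tfcp2l1, Dppa5a, Pou5f1, Zfp42 and Nanog between them. Of the 9 neural markers 7 were lower, from Fabp7 (-1.67, adjusted p = 0.0145) to Stmn2 (-0.93, adjusted p = 0.00560), with Hes5, Nes, Sox1, Pax6 and Tubb3 between them. Over all tested genes 9.57% were called higher and 7.05% lower. Stmn2 fell between the days in wild type, from 132 and 113 FPKM to 68.0 and 64.2 FPKM, whereas the other 8 neural markers rose. The part of differentiation state in the lower Stmn2 level at day 6 was not tested. Esrrb, Nanog, Tfcp2l1, Zfp42, Hes5, Nes, Pax6 and Tubb3 also passed the interaction. None of the 14 fibroblast markers passed at day 6 (2 with an unadjusted p under 0.05), with values from -1.23 for Col1a1 to 0.47 for Mmp2. Of the 26 genes of these partner and marker lists called for genotype at day 6, 21 lost the call when some single sample was left out, and Esrrb, Nanog, Hes5, Nes and Stmn2 were the 5 that passed without each sample in turn. All 9 list genes called in the interaction lost the call without some sample.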

How the data were processed

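Per the authors' methods, poly(A)+ RNA of the 8 samples was sequenced paired-end, adapters and reads that were short, rich in unknown bases or duplicated were removed, and reads were aligned to mm9 with TopHat2 2.0.4 before Cufflinks 2.1.1 gave the deposited FPKM per gene (versions and build from the submitters' processing notes, annotation and replicate handling in Cufflinks not given in the sources used here). The files hold no counts, so the depth is unknown and no counting interval is given. Each file lists 24849 genes, of which 16919 to 17673 were above 0. The 13214 with a mean over 1 FPKM in at least 1 condition were tested as log2(FPKM + 1) with limma 3.58.1 in R 4.3.3, with 1 mean per condition over all 8 samples, a variance trend, Benjamini-Hochberg adjustment over all genes tested and a threshold of 0.05. Groups came from the sample titles. The fit was checked on simulated data. The members and the gene lists were chosen with earlier results of these data known. Named in the text are the members, Pcgf5, list genes past the threshold for genotype at either day or for the interaction, the highest and lowest of each list at day 6, and the 2 genes nearest in pattern to a member past the threshold in the genotype contrast at day 6 or in the interaction. Alternatives were other pseudocounts (0.1 and 5), no minimum or one of 5 FPKM, quantile normalization, centring on chromosomes, only the groups compared, no variance trend, replicate blocks and leaving out each sample. Starts were read from the RefSeq table of GRCm38.p6 and genes' positions from the files in mm9.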

Additional observations from a re-analysis of the deposited data

How the results depend on the processing

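The lower Cdkn2c at day 6 in Pcgf5-/- cells passed in the 17 alternatives in which it was tested, with values from -2.32 to -0.52. Except for the fit without a minimum, these kept the filter that Cdkn2c passed only through wild-type day 6. The count of members called for genotype at day 6 was 1, and 0 at a minimum of 5 FPKM, 2 with quantile normalization, 2 with only the groups compared, 3 with a replicate block for each day, and 1 to 2 when each sample was left out. The members added were Cdkn2a, Ccnd2 or Ccne1. For the Pcgf5-/- day effect it was 5, and 3 without a minimum, 2 with only the groups compared, 3 without a variance trend, 4 relative to chromosomes (Ccnd1 and Ccnd2 lost and Ccne1 added), and 1 to 4 when each sample was left out, the lowest without either Pcgf5-/- sample of day 6, when Cdkn1a alone passed. For the wild-type day effect it was 5 to 7, and for genotype at day 0 it was 0 throughout. For the interaction it was 0, and 2 with a replicate block for each day (Cdkn2a and Cdkn2c) and 0 to 1 when each sample was left out (Ccnd2 without Pcgf5-/- day 0 replicate 1). Only the groups compared could not be fitted for the interaction, which uses all groups.

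The replicate numbers were not said to mark a shared batch, and replicate differences of the genotypes correlated at 0.10 on day 0 and 0.39 on day 6, but at -0.08 to -0.02 across days. With the replicate block, 0, 1, 7, 4 and 0 members were called for genotype at day 0 and day 6, day in wild type and in Pcgf5-/- cells, and the interaction, and 1, 2410, 6935, 4584 and 429 of all genes.

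Over all genes, for genotype at day 0 the 44 genes became 0 to 282 over the alternatives and 1 to 22 when each sample was left out, and for the interaction the 408 became 4 to 1167 and 4 to 347. For genotype at day 6 the 2197 became 297 to 1977 with each sample left out, lowest without Pcgf5-/- day 6 replicate 1, and for the Pcgf5-/- day effect the 4271 became 2367 to 4147. The cause was not tested.

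Values that changed sign did not pass the test in any case. With quantile normalization they were -0.23 for Ccne2 and -0.46 for Cdkn2b in the wild-type day effect, -0.091 for Ccne2 in genotype at day 0 and -0.048 for Ccnd3 in genotype at day 6. With centring on chromosomes they were -0.10 for Ccne2 and -0.17 for Cdkn2b in the wild-type day effect, 0.0096 for Ccnd1 in the interaction, and -0.12 for Ccnd2, -0.057 for Ccne2 and -0.25 for Cdkn1b in genotype at day 0. When each sample was left out, the Pcgf5-/- day effect ran from -0.38 to 0.0089 for Ccne2, -0.23 to 0.047 for Cdkn2a and -0.34 to 0.065 for Cdkn2c, and the wild-type day effect from -0.065 to 0.24 for Ccne2 and -0.20 to 0.24 for Cdkn2b. The interaction ran from -0.14 to 0.062 for Ccnd1 and -0.026 to 0.41 for Ccnd3. Genotype at day 0 ran from -0.18 to 0.022 for Ccnd1, -0.49 to 1.12 for Ccnd2, -0.34 to 0.019 for Ccnd3, -0.016 to 0.41 for Ccne1, -0.15 to 0.24 for Ccne2, -0.0029 to 0.39 for Cdkn1b and -0.39 to 0.062 for Cdkn2c, and at day 6 from -0.19 to 0.25 for Ccnd3.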
